A study of Homo sapiens with 12 samples.

Results

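The unfolded protein response and the folding machinery of the endoplasmic reticulum (ER) were followed through 38 named genes, of 29972 gene rows in each of the tables deposited for the 2 cell lines. The genes were chosen by name: 16 chaperones, lectins and disulfide isomerases, 12 genes of ER-associated degradation, 6 stress sensors and transcription factors, 3 genes of protein translocation and export, and WFS1. All 38 had a row in each table; all 38 were tested in the MDA-MB-436 table and 37 in that of BoM-1833, where DERL3 was too low to be tested. MDA-MB-436 and BoM-1833 are established human triple-negative breast cancer cell lines, BoM-1833 being a derivative of MDA-MB-231 selected for growth in bone, and the series asks what loss of PHF19, an accessory subunit of the Polycomb complex PRC2, does to such cells. Each line was reverse transfected with a total of 5 nM small interfering RNA and used at 72 h. The control group (siNT) received a non-targeting pool and the treated group (siPHF19) a mixture of 2 siRNAs against PHF19, so all 12 libraries came from transfected cells. Pool and PHF19 siRNAs came from different suppliers and no group received a single PHF19 siRNA, so effects of PHF19 loss and of the siRNA mixture itself cannot be told apart. Each of the 4 groups had 3 libraries. Nothing in the labels says that they came from separate cultures, so p-values measure the spread between these libraries, which may be technical.

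Reads in genes numbered 15.2 M to 24.0 M per library for MDA-MB-436 and 13.7 M to 21.3 M for BoM-1833. PHF19 itself was reduced to 9.75% of its siNT mean in MDA-MB-436 while BoM-1833 kept 10.9%, and in each line all siPHF19 libraries lay below all siNT libraries. The progesterone receptor gene PGR had 0 reads in all MDA-MB-436 libraries. Of 6 mesenchymal markers none was at 0. Their summed normalized counts per library were 54791 to 59470 with siNT and 53436 to 55267 with siPHF19 for MDA-MB-436, which overlapped. The sum hides calls in both directions there. By log2 fold change SPARC (1.54) and AXL (0.29) were called higher and CAV1 (-0.37) and CD44 (-0.29) lower. For BoM-1833 the sums were 126698 to 131597 against 117443 to 118859, which did not overlap, and VIM and MSN were called lower. Of 6 blood markers CD3E, HBB and HBA1 were at 0 in all 12 libraries, and the rest of the sum was mostly CD14, at 269 to 337 with siNT and 219.7 to 250.1 with siPHF19 in MDA-MB-436 (called lower, adjusted p 0.0399 by the authors' deposited table) and 83.9 to 113 over all BoM-1833 libraries. PTPRC lay at or below 1.09 in MDA-MB-436 and at 14.9 to 21.2 in BoM-1833. The summed counts of 6 epithelial markers were higher after siPHF19 without overlap. They were 7652 to 7881 against 5819 to 6414 for MDA-MB-436. For BoM-1833 they were 29903 to 31400 against 21451 to 23865. The sums were mostly keratin counts, and KRT8 and KRT18 were the members called higher in each line. None of the 6 was at 0 in all libraries of a line, but some were near it. The highest MDA-MB-436 counts of CDH1, KRT19 and ESRP1 were 3.10, 1.09 and 4.89. Among BoM-1833 libraries CDH1 reached 27.6 and ESRP1 8.73. EPCAM (-0.39, adjusted p-value 0.271) and KRT19 (-0.11, adjusted p-value 0.342) had estimates below 0 there by the authors' deposited table. All siPHF19 libraries of that line lay below all siNT libraries for EPCAM. The part of these marker shifts in the results on ER genes was not tested.

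Secreted and membrane proteins fold in the ER with the help of chaperones such as HSPA5 (BiP), lectins that hold glycoproteins, and isomerases that form disulfide bonds. Proteins that fail to fold are recognised, pulled back through the membrane, tagged with ubiquitin and degraded, which is called ER-associated degradation (ERAD). When unfolded proteins accumulate, the sensors ERN1 (IRE1), ATF6 and EIF2AK3 (PERK) start the unfolded protein response: IRE1 splices XBP1 mRNA into the form that encodes an active factor, ATF6 is cut to release a transcription factor, and PERK slows translation and favours the factor ATF4. Spliced XBP1 and cut ATF6 raise chaperone and ERAD genes through promoter elements named ER stress response elements (ERSE, ERSE-II) and the unfolded protein response element (UPRE).

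Those elements were looked for in the promoters of the 38 genes, since ATF6 and XBP1 are known to act through them. A promoter was taken from RefSeq (GRCh38.p14) as the 300 bases from 250 before the start site. Of the 38 genes 34 had at least 1 promoter and 6 had several, where a match in any of them was counted. The search used CCAAT, 9 bases of any kind and CCACG for ERSE, ATTGG, 1 base of any kind and CCACG for ERSE-II, and TGACGTGG for UPRE, on both strands. ERSE was present in promoters of 25 of 27305 genes (0.0916%) and in 7 of the 38 genes (HSPA5, HSP90B1, CRELD2, CALR, CANX, PDIA6 and XBP1). ERSE-II was present in promoters of 19 genes (0.0696%) and in 3 of the 38 (HYOU1, SDF2L1 and HERPUD1). UPRE was present in those of 253 genes (0.927%) and in HYOU1 and DNAJC10. A match is a description of the sequence and not a measured binding site. The lack of an exact match does not show that a gene is no target of ATF6 or XBP1. The windows below belong to genes with a call in at least 1 line and to XBP1, and are written on the strand of the gene with the fixed letters of the element in capitals and 5 flanking bases on each side. The CANX window lies inside the gene as annotated, which begins at position 179678628, and so belongs to a later start site. HYOU1 has ERSE-II in 2 places, and in the upstream one an UPRE overlaps the ERSE-II, as the last window shows.
HSPA5, ERSE, chr9:125241386-125241414, minus strand, first base of the element 66 before the start site: cttcaCCAATcggcggcctCCACGacggg
CALR, ERSE on the opposite strand, chr19:12938379-12938407, plus strand, 225 before: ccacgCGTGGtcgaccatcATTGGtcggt
CANX, ERSE, chr5:179698773-179698801, plus strand, 189 before: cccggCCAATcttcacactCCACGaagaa
XBP1, ERSE, chr22:28800598-28800626, minus strand, 52 before: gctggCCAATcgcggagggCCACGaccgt
HERPUD1, ERSE-II, chr16:56932020-56932040, plus strand, 117 before: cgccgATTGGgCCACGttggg
HYOU1, ERSE-II on the opposite strand, chr11:119057269-119057289, minus strand, 79 before: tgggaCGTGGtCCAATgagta
HYOU1, ERSE-II on the opposite strand, chr11:119057375-119057395, minus strand, 185 before: cgtgaCGTGGtCCAATcccag
HYOU1, UPRE, chr11:119057381-119057398, minus strand, 188 before: ccccgTGACGTGGtccaa

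The ER genes moved in both directions after siPHF19, and neither the chaperones nor the ERAD genes moved as a block. Calls rest on an adjusted p under 0.05 by the DESeq2 Wald test of the authors' deposited table, with the adjustment made over all genes tested. Signed values beside a p-value, here and below, are log2 fold changes of siPHF19 over siNT unless a difference between lines is named. In MDA-MB-436 10 of 38 genes were called, against 22.1% of all tested genes (10.5% higher, 11.5% lower): DNAJB9, DERL1, CREB3L2 and SYVN1 rose and EIF2AK3, PDIA3, SELK, HYOU1, SEL1L and MANF fell. In BoM-1833 9 of 37 tested genes were called, against 10.9% of all tested genes (5.21% higher, 5.72% lower): DNAJB11, DERL1 and CALR rose and EIF2AK3, SEL1L, HERPUD1, HSPA5, HYOU1 and CANX fell. Most of the 38 genes are abundant, and abundant genes are called more often: among tested genes with a mean count at least that of the lowest member other than DERL3, 27.4% of 9611 were called in MDA-MB-436, and the share was 14.2% of 8373 in BoM-1833. The 10 of 38 genes are 26.3%, near the share of abundant genes in MDA-MB-436, and the 9 of 37 are 24.3%, above the share of abundant genes in BoM-1833. Neither difference was tested. The floor for abundant genes was a mean count of 199.7 (ERN1) in MDA-MB-436 and 295 (CRELD2) in BoM-1833. Members reached 23250 (CANX) and 29110 (HSP90B1), so these shares are not matched to the members in level. The median log2 fold change of the 38 genes was 0.00 for MDA-MB-436 and that of the 37 was -0.05 for BoM-1833, and over all tested genes it was -0.00 in each line.

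Called in both lines were 4 genes, each in the same direction: HYOU1, SEL1L and EIF2AK3 fell and DERL1 rose. They are 40% of the calls for MDA-MB-436 and 44.4% of those for BoM-1833, and 10.5% of the 38 genes, where of 12290 genes with a test in each line 5.97% were called in both (3.12% lower in both, 2.55% higher in both). A further 6 genes were called in MDA-MB-436 alone, 5 in BoM-1833 alone and 23 in neither. The siPHF19 libraries lay entirely above the siNT libraries for 10 genes and entirely below for 10 in MDA-MB-436, where 21.1% of tested genes did so in each direction and 42.2% in either. In BoM-1833 they lay above for 8 genes (15.3% of tested genes) and below for 12 (15.7%), against 31% in either direction.

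Many of these calls were lost when 1 library was left out. Such a fit has fewer libraries in a group, so it also has less power to call a gene. Shares of all tested genes called in these fits are not given here. The changes in number below therefore cannot be read as particular to the ER genes. Of the 10 calls in MDA-MB-436, those of HYOU1, SEL1L, EIF2AK3, DERL1, DNAJB9 and PDIA3 held in each of the 6 fits that left out 1 library. In BoM-1833 only the calls of SEL1L and EIF2AK3 held in each. The number called in MDA-MB-436 was 6 without siNT replicate 2 and 6 without siPHF19 replicate 2, against 10 with all libraries. In BoM-1833 it was 16 (6 higher, 10 lower) without siNT replicate 1, 3 without siNT replicate 2, siPHF19 replicate 1 or siPHF19 replicate 2, and 5 without siPHF19 replicate 3, against 9. The 3 genes that rose in BoM-1833, DNAJB11, DERL1 and CALR, kept their calls only in the fit without siNT replicate 1, and their estimates stayed above 0 in all 6 fits.

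**Figure D1:**
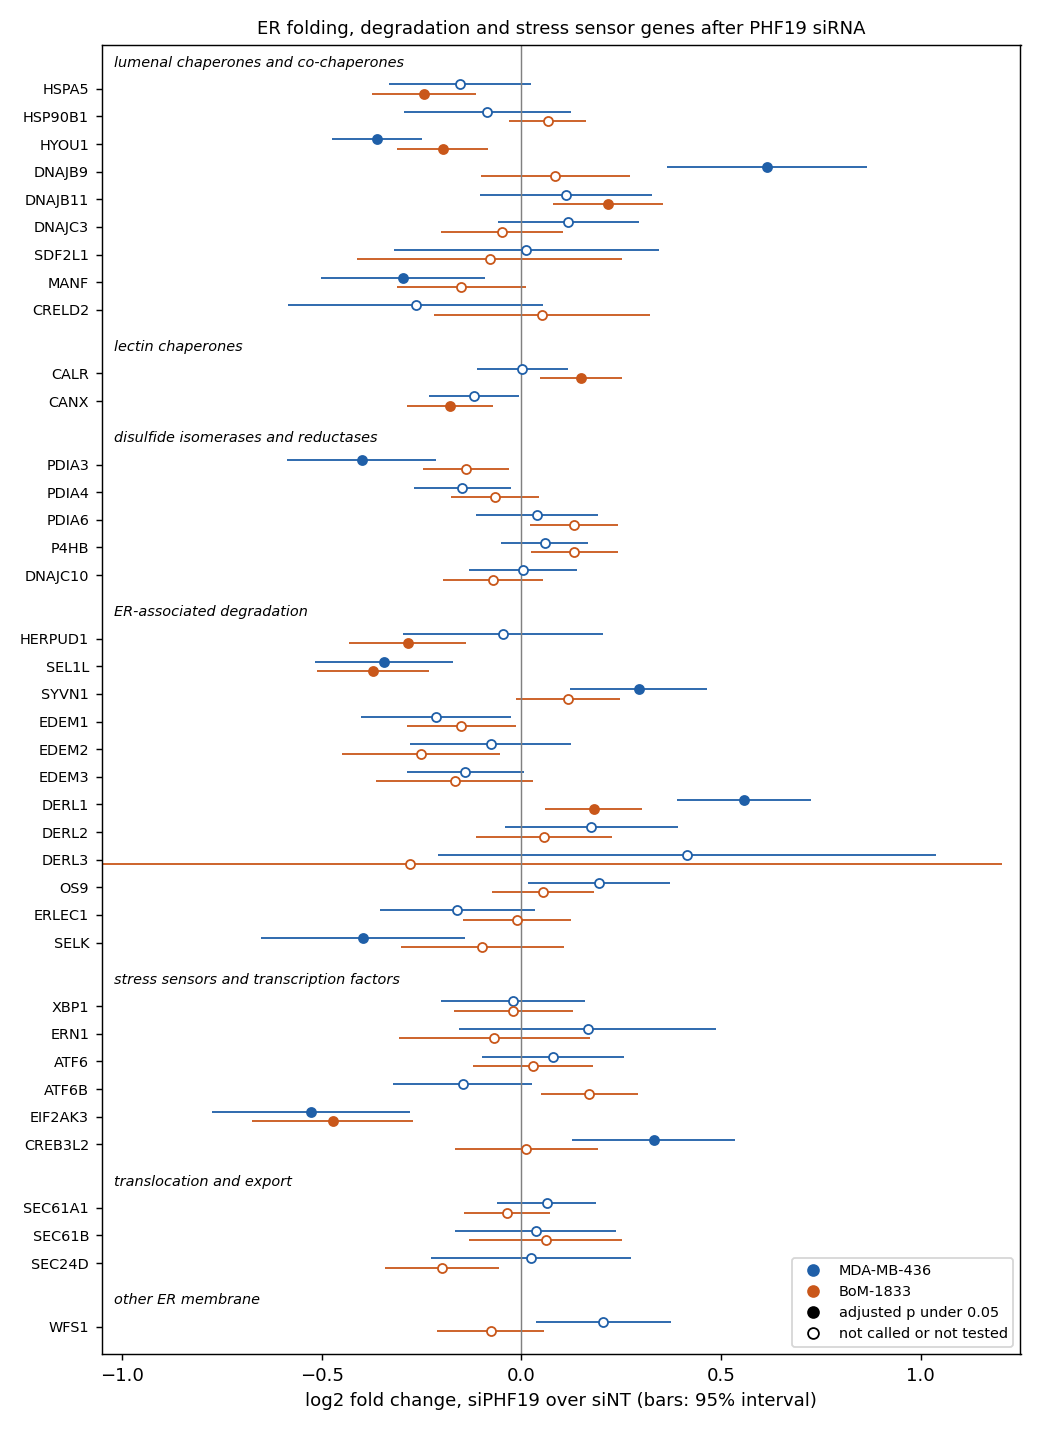
Log2 fold change of siPHF19 over siNT (x axis) for the 38 genes, grouped by role, in MDA-MB-436 (blue) and BoM-1833 (orange), with 95% intervals from the standard errors of the authors' deposited table. Filled points have an adjusted p under 0.05; the interval of DERL3 in BoM-1833 runs past the left edge. HYOU1, SEL1L and EIF2AK3 lie left of 0 with filled points in both lines and DERL1 lies right of 0, while most other points lie within 0.3 of 0.

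HSPA5 and the lumenal chaperones that work with it split by gene. Of the 9 lumenal chaperones and co-chaperones, 1 rose and 2 fell in each line, or 33.3%, beside 22.1% and 10.9% of all tested genes (27.4% and 14.2% of abundant ones). The median log2 fold change was -0.08 for MDA-MB-436 and -0.05 for BoM-1833. HYOU1, the large HSP70-related chaperone and nucleotide exchange factor of BiP, fell in both lines. DNAJB9, a J-domain partner of BiP that also holds IRE1 inactive, rose in MDA-MB-436, with the highest fold change of the 38 genes there. Since RNA was taken from whole cultures, less RNA per cell and fewer cells with the RNA cannot be told apart here or below.

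HYOU1 (chromosome 11, 119044189 to 119057202, minus strand, GRCh38) had normalized counts of 5169, 5246 and 5281 in the MDA-MB-436 siNT libraries, replicates 1 to 3, and of 4064, 4023 and 4127 in the siPHF19 libraries. The groups did not overlap, and the replicates of each group lay close together. In BoM-1833 the counts were 8165, 8329 and 7755 in siNT and 6743, 7163 and 7256 in siPHF19, again without overlap. The mean of MDA-MB-436 fell from 5232 ± 56.9 to 4072 ± 52.6, and that of BoM-1833 from 8083 ± 296 to 7054 ± 273 (SD, n = 3). The authors' deposited table gives log2 fold changes of -0.36 (standard error 0.06, adjusted p-value 1.13e-08) and -0.20 (standard error 0.06, adjusted p-value 0.00977). The call in BoM-1833 was lost without siNT replicate 2, siPHF19 replicate 1 or siPHF19 replicate 2, with adjusted p-values of 0.110, 0.147 and 0.0706. The antisense gene AP003392.3 overlaps HYOU1, and whether counting used the strand is not given in the sources used here.

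HSPA5 (chromosome 9, 125234853 to 125241330, minus strand) encodes BiP, the central HSP70 chaperone of the ER and the usual read-out of the response. Its normalized counts were 26083, 24952 and 21862 in the BoM-1833 siNT libraries and 20058, 20851 and 20698 in siPHF19. Every siPHF19 library was below every siNT library, and siNT replicate 3 was the siNT library nearest to them. In MDA-MB-436 the counts were 21182, 18215 and 16731 in siNT and 15916, 16801 and 17752 in siPHF19, where siNT replicate 3 lay inside the siPHF19 range. The mean fell from 24299 ± 2185 to 20536 ± 420.4 (SD, n = 3) in BoM-1833, with a log2 fold change of -0.24 (standard error 0.07, adjusted p-value 0.00409) per the authors' deposited table. The log2 fold change of MDA-MB-436 was, by the authors' deposited table, -0.15 (standard error 0.09, adjusted p-value 0.237), which did not pass, and the fold changes were not found to differ between lines (difference -0.09, interval -0.31 to 0.13, adjusted p 0.771, z test). HSPA5 passed in MDA-MB-436 without siNT replicate 3 (-0.23, adjusted p 0.0106). Its call in BoM-1833 was lost without siNT replicate 2 (adjusted p 0.0538) or siPHF19 replicate 1 (0.0607).

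DNAJB9 (chromosome 7, 108569568 to 108574850, plus strand) had normalized counts of 223, 219 and 226 in the siNT libraries of MDA-MB-436 and 354, 351 and 316 in siPHF19. All siPHF19 libraries were far above the siNT libraries, and the mean rose from 222 ± 3.84 to 340.4 ± 21.4 (SD, n = 3), to 153% of siNT. In BoM-1833 the counts were 615, 639 and 578 in siNT and 673, 652 and 617 in siPHF19, and the groups overlapped. The authors' deposited table puts the log2 fold change at 0.62 (standard error 0.13, adjusted p-value 2.43e-05) in MDA-MB-436 and 0.09 (standard error 0.10, adjusted p-value 0.698) in BoM-1833. DNAJB9 overlaps PNPLA8 and THAP5, so reads of these genes could be shared.

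DNAJB11, another J-domain partner of BiP, had counts of 1891, 1759.5 and 1705 in BoM-1833 siNT and 2025, 2066 and 2136 in siPHF19, which did not overlap. In MDA-MB-436 it had 1916, 1551 and 1392 in siNT and 1738, 1789 and 1725 in siPHF19, where siNT replicate 1 lay above all siPHF19 libraries and the other siNT libraries below them. The authors' deposited table puts the log2 fold change at 0.22 (standard error 0.07, adjusted p-value 0.0228) in BoM-1833 and 0.11 (standard error 0.11, adjusted p-value 0.519) in MDA-MB-436. The call in BoM-1833 held without siNT replicate 1 and was lost in the other 5 fits that left out 1 library (adjusted p up to 0.216), while in MDA-MB-436 DNAJB11 passed without siNT replicate 1 (0.25, adjusted p 0.00811).

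MANF, a secreted ER stress protein that binds BiP, had counts of 1781, 1559 and 1366 in MDA-MB-436 siNT and 1194, 1328 and 1312 in siPHF19. In BoM-1833 it had 2082, 1757 and 1721 in siNT and 1653, 1697 and 1665 in siPHF19. The siPHF19 libraries lay below the siNT libraries in both lines, with siNT replicate 1 the highest library of each line. MANF passed in MDA-MB-436 with -0.30 (standard error 0.10, adjusted p-value 0.0259) and did not pass in BoM-1833 with -0.15 (standard error 0.08, adjusted p-value 0.281), by the authors' deposited table. The call held without siNT replicate 3 and was lost in the other 5 fits that left out 1 library (adjusted p up to 0.196).

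The remaining lumenal chaperones passed in neither line. HSP90B1 (GRP94), the HSP90 of the ER, had -0.08 and 0.07, DNAJC3, an inhibitor of PERK, 0.12 and -0.05, SDF2L1, a partner of ER J-domain proteins, 0.01 and -0.08, and CRELD2 -0.26 and 0.05 in MDA-MB-436 and BoM-1833 per the authors' deposited table. CRELD2 passed in MDA-MB-436 without siNT replicate 3 (-0.39, adjusted p 0.0431). Several of these chaperones varied together between control libraries. On the log2 scale, siNT replicate 1 of MDA-MB-436 was the highest siNT library for 6 of the 9 genes (median deviation from the siNT mean 0.19) and siNT replicate 3 the lowest for 6 (median -0.19). In BoM-1833 siNT replicate 1 was highest for 6 (median 0.08) and siNT replicate 3 lowest for 8 (median -0.08). Among abundant genes siNT replicate 1 was highest for 3989 of 9611 in MDA-MB-436 and 3498 of 8373 in BoM-1833. There siNT replicate 3 was lowest for 3703 and 2533, and these libraries had median deviations between -0.01 and 0.01. Without siNT replicate 1 the median log2 fold change of the 9 genes turned from -0.08 to 0.06 in MDA-MB-436, where it was -0.18 without siNT replicate 3. That of BoM-1833 turned from -0.05 to 0.08. What set the control libraries apart was not tested.

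**Figure D2:**
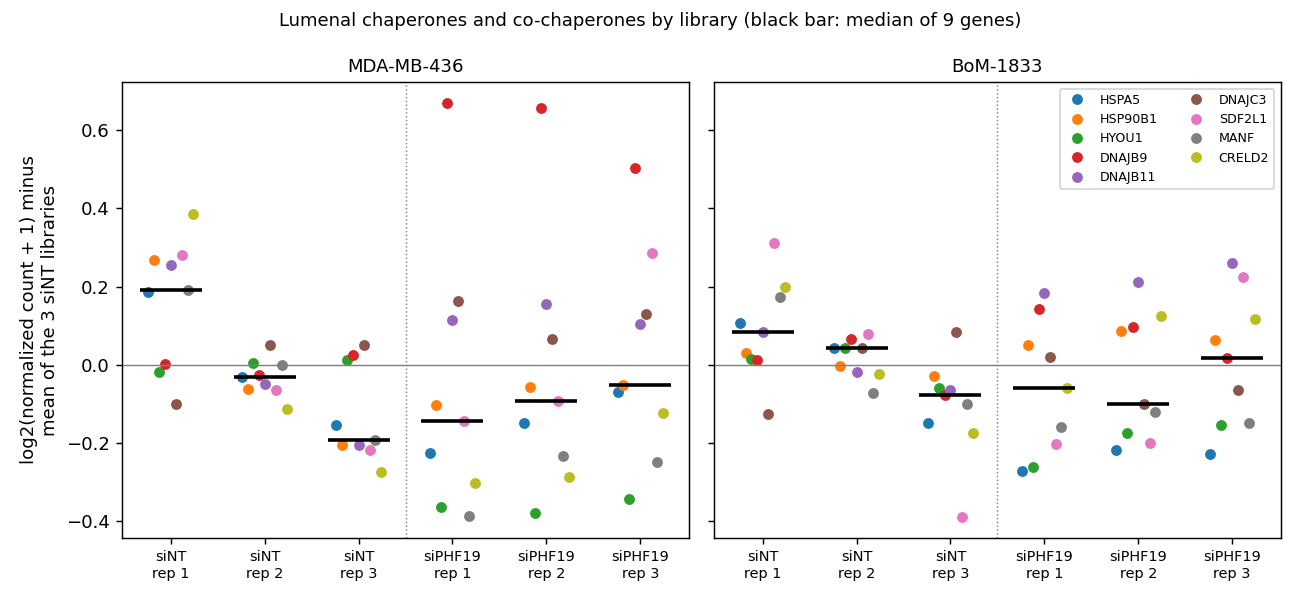
Each of the 9 lumenal chaperones and co-chaperones (coloured points) in each library, as log2(normalized count + 1) minus the mean of the 3 siNT libraries of that line (y axis), with the median of the 9 genes as a black bar. In the siNT libraries of MDA-MB-436 the bars lie between -0.19 (replicate 3) and 0.19 (replicate 1); DNAJB9 stands above the others in MDA-MB-436 siPHF19 and HYOU1 lies low in all siPHF19 libraries of that line.

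The lectin chaperones, which hold monoglucosylated glycoproteins until they fold, went opposite ways in BoM-1833. CALR, the soluble one, had counts of 28485, 26512 and 27782 in siNT and 30069.5, 31294 and 30429.5 in siPHF19, all siPHF19 libraries being higher. CANX, its membrane-bound counterpart, had 29248, 32394 and 31044 in siNT and 27572, 27137 and 27187 in siPHF19, all siPHF19 libraries being lower. The authors' deposited table gives CALR 0.15 (standard error 0.05, adjusted p-value 0.0411) and CANX -0.18 (standard error 0.05, adjusted p-value 0.0141) in BoM-1833. CALR held its call in 1 of 11 alternatives, the fit without siNT replicate 1, and its adjusted p reached 0.332 without siPHF19 replicate 2. CANX lost its call without siNT replicate 2 or any 1 of the siPHF19 libraries (adjusted p up to 0.163).

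In MDA-MB-436 CALR had 14558, 13963 and 13467 in siNT and 14169, 13935 and 13978 in siPHF19, which overlapped. CANX had 25226, 23419.9 and 23960.1 in siNT and 22448, 22260.0 and 22184 in siPHF19 there, with all siPHF19 libraries lower. Neither passed, with 0.00 (adjusted p-value 0.979) for CALR and -0.12 (adjusted p-value 0.126) for CANX per the authors' deposited table.

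Among the 5 disulfide isomerases and reductases PDIA3 (ERp57), the isomerase that works with calreticulin and calnexin, was the one called, in MDA-MB-436. Its counts were 10320.3, 8668 and 7925 in siNT and 6564, 7009.7 and 6836 in siPHF19 there. The siPHF19 libraries lay below all siNT libraries, among which replicate 1 was highest. In BoM-1833 the counts were 8682, 8319 and 8297 in siNT and 7399, 7814 and 7784 in siPHF19, also without overlap. The authors' deposited table puts the log2 fold change at -0.40 (standard error 0.10, adjusted p-value 3.41e-04) in MDA-MB-436 and -0.14 (standard error 0.05, adjusted p-value 0.0901) in BoM-1833. PDIA3 overlaps ELL3 and has 2 annotated pseudogenes. The other isomerases, PDIA4, PDIA6, P4HB and DNAJC10, had log2 fold changes from -0.15 to 0.06 for MDA-MB-436 and between -0.07 and 0.13 for BoM-1833 per the authors' deposited table, and none passed. Without siNT replicate 1 PDIA3 passed in BoM-1833 as well (-0.12, adjusted p 0.0429), PDIA4 passed in MDA-MB-436 (-0.16, adjusted p 0.0264), and PDIA6 (0.16, adjusted p 0.00235) and P4HB (0.17, adjusted p 4.83e-04) passed in BoM-1833.

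The ERAD genes also moved both ways. In MDA-MB-436 DERL1 and SYVN1 rose and SEL1L and SELK fell. In BoM-1833 DERL1 rose and SEL1L and HERPUD1 fell. That is 33.3% of 12 and 27.3% of 11 tested, beside 22.1% and 10.9% of all tested genes (27.4% and 14.2% of abundant ones). No difference from these shares was tested. The median log2 fold change of the 12 was -0.06 in MDA-MB-436, and that of the 11 tested in BoM-1833 was -0.10. SEL1L and SYVN1 (HRD1), which encode the scaffold and the ubiquitin ligase of the same complex, moved in opposite directions in MDA-MB-436.

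SEL1L (chromosome 14, 81471549 to 81533861, minus strand) had counts of 1449.5, 1494 and 1481 in MDA-MB-436 siNT and 1285, 1129 and 1076 in siPHF19. In BoM-1833 it had 3529, 4091 and 4011 in siNT and 3142, 2919 and 2924 in siPHF19. The groups did not overlap in either line. SEL1L fell to 78.9% and 77.3% of the siNT mean, and the difference between the log2 fold changes was -0.03 (interval -0.25 to 0.19, adjusted p 0.946, z test). The authors' deposited table puts the log2 fold change at -0.34 (standard error 0.09, adjusted p-value 0.00107) and -0.37 (standard error 0.07, adjusted p-value 8.13e-06). No gene overlaps SEL1L in the annotation.

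SYVN1 had counts of 1147, 1297 and 1361 in MDA-MB-436 siNT and 1513, 1616 and 1532 in siPHF19, and in BoM-1833 of 1744, 1728 and 1731 in siNT and 1914, 1865 and 1862 in siPHF19. The siPHF19 libraries were the higher ones in both lines, without overlap. By the authors' deposited table SYVN1 passed in MDA-MB-436, at 0.29 (standard error 0.09, adjusted p-value 0.00607), and did not in BoM-1833, at 0.12 (standard error 0.07, adjusted p-value 0.304). The call was lost without siNT replicate 2 (adjusted p 0.0508), siPHF19 replicate 2 (0.114) or siPHF19 replicate 3 (0.0522). SYVN1 overlaps FAU and MRPL49.

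DERL1 (chromosome 8, 123013164 to 123042423, minus strand) encodes derlin-1, a membrane protein through which ERAD substrates leave the ER. Its counts were 1777, 2092 and 2140.2 in MDA-MB-436 siNT and 2971, 3017 and 2863 in siPHF19. In BoM-1833 they were 2270.3, 2258 and 2331 in siNT and 2623, 2563 and 2589.9 in siPHF19. The siPHF19 libraries lay above the siNT libraries in both lines, by more in MDA-MB-436. The mean rose from 2003 ± 197 to 2950.5 ± 79.1 and from 2286 ± 38.7 to 2592 ± 30.2 (SD, n = 3). The authors' deposited table puts the log2 fold change at 0.56 (standard error 0.09, adjusted p-value 2.99e-09) and 0.18 (standard error 0.06, adjusted p-value 0.0340). The call in BoM-1833 held without siNT replicate 1 and was lost in the other 5 fits that left out 1 library (adjusted p up to 0.204). DERL1 overlaps TBC1D31 and an antisense gene. Its relatives DERL2 and DERL3 did not pass: DERL2 had 0.18 and 0.06 per the authors' deposited table, and DERL3, at 28.1 to 43.3 normalized counts for MDA-MB-436 and 3.82 to 14.8 for BoM-1833, was the least abundant of the 38 genes.

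HERPUD1, a small membrane protein that brings ERAD factors to the HRD1 complex and is a known target of several branches of the response, fell in BoM-1833. Its counts were 2024, 1927 and 1760.1 in siNT and 1552, 1534 and 1607 in siPHF19 there, without overlap. In MDA-MB-436 they were 345, 349.6 and 338 in siNT and 362, 349.5 and 288 in siPHF19, which overlapped. The authors' deposited table puts the log2 fold change at -0.28 (standard error 0.07, adjusted p-value 0.00275) in BoM-1833 and -0.05 (standard error 0.13, adjusted p-value 0.847) in MDA-MB-436. The difference between lines did not pass (-0.24, interval -0.53 to 0.05, adjusted p 0.448, z test), and the call was lost without siPHF19 replicate 2 (adjusted p 0.0591).

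SELK (selenoprotein K, SELENOK), a partner of the derlins, had counts of 443, 374 and 355 in MDA-MB-436 siNT and 286, 287 and 318 in siPHF19, without overlap. In BoM-1833 it had 633, 595 and 546 in siNT and 513, 554 and 593 in siPHF19, with overlap. By the authors' deposited table it had -0.40 (standard error 0.13, adjusted p-value 0.0151) in MDA-MB-436 and -0.10 (standard error 0.10, adjusted p-value 0.679) in BoM-1833. The call was lost without siNT replicate 1 or 2 or siPHF19 replicate 1 or 2 (adjusted p up to 0.137), and with 3 annotated pseudogenes the counts are uncertain.

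The mannosidase-like proteins EDEM1, EDEM2 and EDEM3, which mark misfolded glycoproteins for degradation, had estimates below 0 in both lines, from -0.21 to -0.08 for MDA-MB-436 and between -0.25 and -0.15 for BoM-1833 per the authors' deposited table, and none passed. EDEM1 passed without siNT replicate 1 in each line, at -0.31 (adjusted p 1.87e-05) for MDA-MB-436 and -0.21 (adjusted p 0.00245) for BoM-1833. EDEM2 had normalized counts of 577, 556 and 598 in BoM-1833 siNT and 467, 473 and 515 in siPHF19, and passed there by edgeR with TMM factors (-0.25, adjusted p 0.0437). EDEM3 passed in BoM-1833 without siNT replicate 1 (-0.27, adjusted p 0.0183). The lectins OS9 and ERLEC1, which deliver glycoproteins to the HRD1 complex, had 0.20 and -0.16 in MDA-MB-436 and 0.05 and -0.01 in BoM-1833 per the authors' deposited table and did not pass; OS9 passed in MDA-MB-436 without siNT replicate 1 (0.26, adjusted p 0.0144) and ERLEC1 without siNT replicate 3 (-0.24, adjusted p 0.0470).

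Of the stress sensors, EIF2AK3 fell in both lines while ERN1, ATF6 and XBP1 did not pass in either. EIF2AK3 (chromosome 2, 88556741 to 88627576, minus strand) encodes PERK, the kinase that slows translation under ER stress. Its counts were 424, 417 and 501 in MDA-MB-436 siNT and 282, 329.7 and 316 in siPHF19. In BoM-1833 they were 631, 651 and 601 in siNT and 487, 429 and 439.7 in siPHF19. The groups were apart in both lines, and 69.1% and 72.0% of the siNT mean remained. The authors' deposited table puts the log2 fold change at -0.53 (standard error 0.13, adjusted p-value 3.98e-04) and -0.47 (standard error 0.10, adjusted p-value 1.16e-04), the lowest values among the 38 genes in each line. The difference between lines was 0.05 (interval -0.27 to 0.37, adjusted p 0.917, z test). EIF2AK3 has 2 overlapping antisense genes.

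XBP1 had counts of 1313, 1190.5 and 1114 in MDA-MB-436 siNT and 1138, 1165 and 1264 in siPHF19, and of 1823, 1607 and 1641 in siNT and 1711, 1701 and 1589 in siPHF19 in BoM-1833. The groups overlapped in both lines. The authors' deposited table puts the log2 fold change at -0.02 (standard error 0.09, adjusted p-value 0.905) and -0.02 (standard error 0.08, adjusted p-value 0.929), with intervals of -0.20 to 0.16 and -0.17 to 0.13. Counts per gene do not separate spliced from unspliced XBP1 mRNA, so the activity of IRE1 was not measured.

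ATF6 had counts of 849, 869.6 and 975 in siNT and 938, 983 and 918 in siPHF19 in MDA-MB-436, and of 1518, 1648 and 1737 in siNT and 1747, 1645 and 1604 in siPHF19 in BoM-1833. ERN1, far lower, had 177, 196 and 191 in siNT and 253, 194 and 188 in siPHF19 in MDA-MB-436 and 395, 460.2 and 503 in siNT and 477, 399.8 and 416 in siPHF19 in BoM-1833. For both genes siNT and siPHF19 overlapped in both lines. By the authors' deposited table ATF6 had 0.08 (adjusted p-value 0.597) and 0.03 (adjusted p-value 0.900), and ERN1 0.17 (adjusted p-value 0.521) and -0.07 (adjusted p-value 0.837). The intervals of ERN1 were wide, -0.16 to 0.49 and -0.31 to 0.17, so a change of the size seen for CREB3L2 in MDA-MB-436 lies inside that of MDA-MB-436.

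CREB3L2, a membrane-bound transcription factor related to ATF6 that acts in secretory cells, rose in MDA-MB-436. Its counts were 508, 571 and 610.3 in siNT and 696, 684 and 746 in siPHF19, without overlap. In BoM-1833 they were 1397, 1758 and 1694 in siNT and 1770.0, 1562 and 1556 in siPHF19, where the groups overlapped. The authors' deposited table puts the log2 fold change at 0.33 (standard error 0.10, adjusted p-value 0.00967) and 0.01 (standard error 0.09, adjusted p-value 0.967). The call held without siNT replicate 3 and was lost in the other 5 fits that left out 1 library (adjusted p up to 0.128). ATF6B, the relative of ATF6, had -0.15 for MDA-MB-436 and 0.17 for BoM-1833 (adjusted p-value 0.0524) per the authors' deposited table and passed in neither, though it did in BoM-1833 without siNT replicate 1 (0.17, adjusted p 0.0240). In BoM-1833 siPHF19 replicate 1 was the highest siPHF19 library for all 6 sensors and factors, with a median log2 deviation of 0.09 from the group mean. Among abundant genes that library was the highest for 2866 of 8373.

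**Figure D3:**
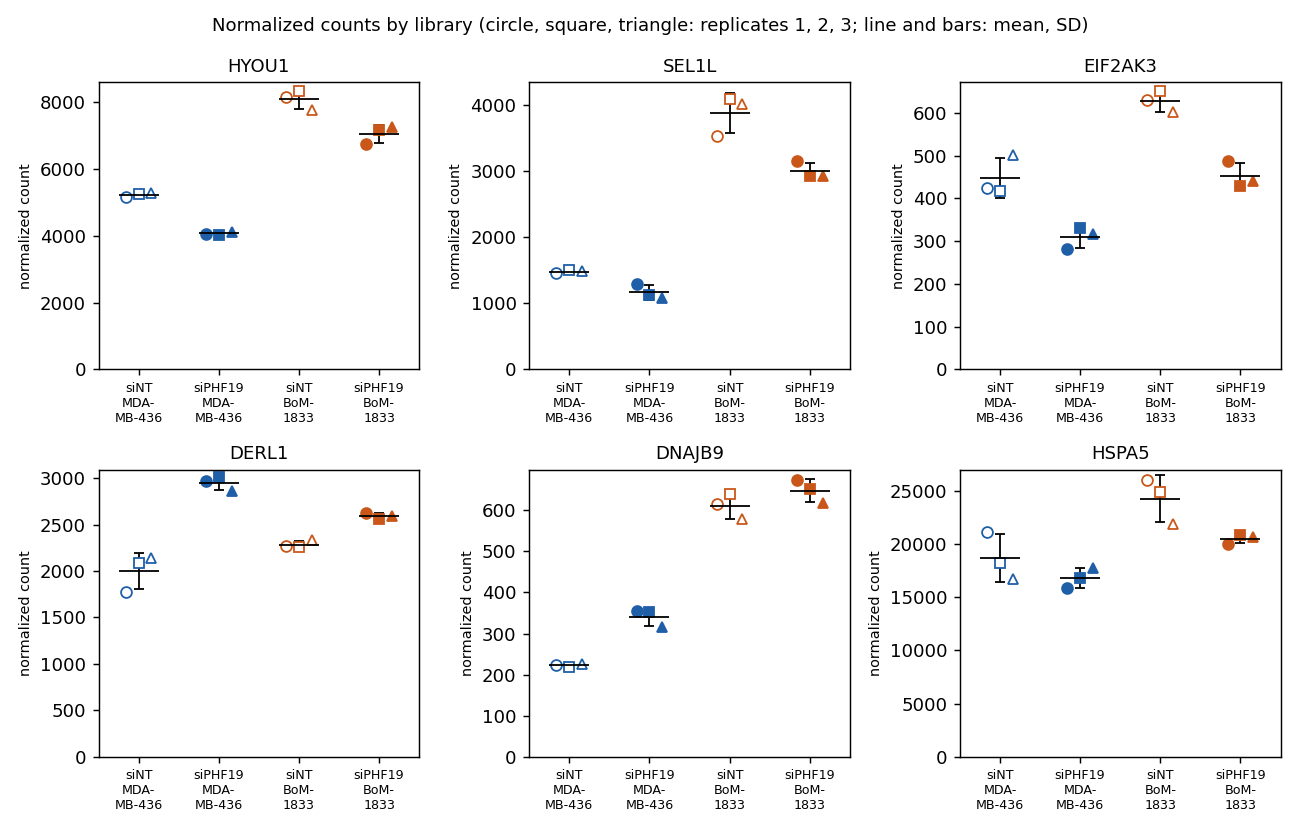
Normalized counts (y axes, from 0) of 6 genes in each of the 12 libraries, siNT as open and siPHF19 as filled symbols in MDA-MB-436 (blue) and BoM-1833 (orange), with the mean and SD of each group of 3 in black. HYOU1, SEL1L and EIF2AK3 are lower and DERL1 is higher after siPHF19 in both lines without overlap, DNAJB9 separates in MDA-MB-436, and HSPA5 overlaps in MDA-MB-436 through siNT replicate 3.

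Translocation and export genes showed no call. SEC61A1 and SEC61B, subunits of the channel through which proteins enter the ER, had 0.06 and 0.04 in MDA-MB-436 and -0.03 and 0.06 in BoM-1833 per the authors' deposited table. SEC24D, a cargo receptor of the COPII coat that buds from the ER, had 0.02 and -0.20 (adjusted p-value 0.0551) there, and passed in BoM-1833 without siNT replicate 1 (-0.25, adjusted p 0.00209). WFS1, an ER membrane protein linked to calcium handling and to restraint of ATF6, had 0.21 (adjusted p-value 0.0710) for MDA-MB-436 and -0.08 for BoM-1833 per the authors' deposited table; it passed in MDA-MB-436 without siNT replicate 3 (0.26, adjusted p 0.0114).

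The response differed between lines for 2 of the 37 genes tested in both, against 4.89% of 12290 genes, by a z test on the fold changes of both lines adjusted over all of those genes. DERL1 rose less in BoM-1833 (difference -0.38, SE 0.11, adjusted p 0.0120), and DNAJB9 had a higher fold change in MDA-MB-436 (difference -0.53, SE 0.16, adjusted p 0.0237). ATF6B, with a difference of 0.32 (SE 0.11, adjusted p 0.0625), passed by the interaction terms of DESeq2 and edgeR on all 12 libraries. A further 4 genes, WFS1, PDIA3, CREB3L2 and HYOU1, had an unadjusted p under 0.05 and did not pass. DERL1 lost its difference without MDA-MB-436 siPHF19 replicate 1 or 2, where 0 genes passed, and DNAJB9 in 8 of the 12 fits that left out 1 library. PDIA3 and WFS1 joined without MDA-MB-436 siNT replicate 3, and ATF6B and CREB3L2 without BoM-1833 siNT replicate 1, which made 4 genes each. Of the 6 genes called in MDA-MB-436 alone DNAJB9 differed between lines, and of the 5 called in BoM-1833 alone 0 did by this test (CALR and HERPUD1 had unadjusted p-values of 0.0616 and 0.107).

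Of the 10 genes with an ERSE or ERSE-II in the promoter, 1 was called in MDA-MB-436 (HYOU1, lower) and 5 in BoM-1833 (CALR higher; HSPA5, HYOU1, CANX and HERPUD1 lower), which is 10% and 50% beside 22.1% and 10.9% of all tested genes (27.4% and 14.2% of abundant ones). The median log2 fold changes were -0.07 and -0.05. HSPA5 and CALR both hold an ERSE with the same fixed letters, and in BoM-1833 the former fell and the latter rose, though the call of CALR was lost in 10 of 11 alternatives. Of the 4 genes called in both lines, HYOU1 holds the element, EIF2AK3 and SEL1L have none in the window searched, and DERL1 had no promoter in the table.

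The sequence AAACTG, which earlier results on these data had found to be frequent in the 3′ UTRs of genes lowered in both lines, was counted in the 3′ UTRs of the members (GENCODE 29 transcripts). SEL1L has 5 copies, EIF2AK3 4, HSPA5 3 and HYOU1 and PDIA3 2 each, while MANF, CANX and HERPUD1, which also fell in a line, have 0. SEL1L, EIF2AK3 and HYOU1 are themselves lowered in both lines, so counts of lowered members are not independent of how the sequence was chosen. Of members called in neither line, DNAJC10 has 6 copies and ATF6, EDEM3 and SEC24D 3 each. The 3′ UTRs differ in length, at 17332 bases for DNAJC10, 5423 for SEL1L and 308 for MANF. Of members not called, 39.3% for MDA-MB-436 and 42.9% for BoM-1833 have a copy. Of the genes that rose, DNAJB9 and CREB3L2 have 2 each, DERL1 and CALR 1 each, and SYVN1 and DNAJB11 0. Among the members called lower, 5 of 6 for MDA-MB-436 and 4 of 6 for BoM-1833 have at least 1 copy, where 53.0% and 65.3% of all genes called lower and 45.0% and 45.3% of all tested genes do. Among those called higher, 3 of 4 and 2 of 3 have a copy, where 46.0% and 37.9% of all genes called higher do. Median 3′ UTR lengths of all genes called lower were 1131 and 1668 bases and of all called higher 1830 and 1408. The part of this sequence in the changes was not tested.

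Levels were compared between genes as normalized counts per kilobase of transcript in the siNT libraries. The length was that of 1 annotated transcript per gene, the longest principal one where marked. Levels and their order depend on this choice, with 1850 bases for XBP1, 7496 for ATF6 and 7876 for ERN1. CALR was the most abundant in both lines, at 7355 ± 287 per kb for MDA-MB-436 and 14499.7 ± 525 for BoM-1833 (SD, n = 3). CANX, HSPA5, HSP90B1 and PDIA6 followed in MDA-MB-436, from 5681 ± 218 to 4205 ± 402, where HSPA5, HSP90B1 and PDIA6 did not differ beyond their spread. In BoM-1833 the order was HSP90B1 (9953 ± 199), CANX (7252 ± 370.4) and HSPA5 (6218 ± 559). The sensors and the factor XBP1 stood far lower than these chaperones. XBP1 was at 652 ± 54.3, ATF6 at 119.8 ± 8.98, EIF2AK3 at 96.3 ± 10.1 and ERN1 at 23.9 ± 1.26 per kb in MDA-MB-436. In the same order they were at 914 ± 62.6, 218 ± 14.7, 135 ± 5.42 and 57.5 ± 6.87 in BoM-1833. DNAJB11 was level with XBP1 within the spread in MDA-MB-436 (675 ± 112) and below it in BoM-1833 (744 ± 39.9). The tables of the lines were normalized separately, so levels are not tested between lines.

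**Figure D4:**
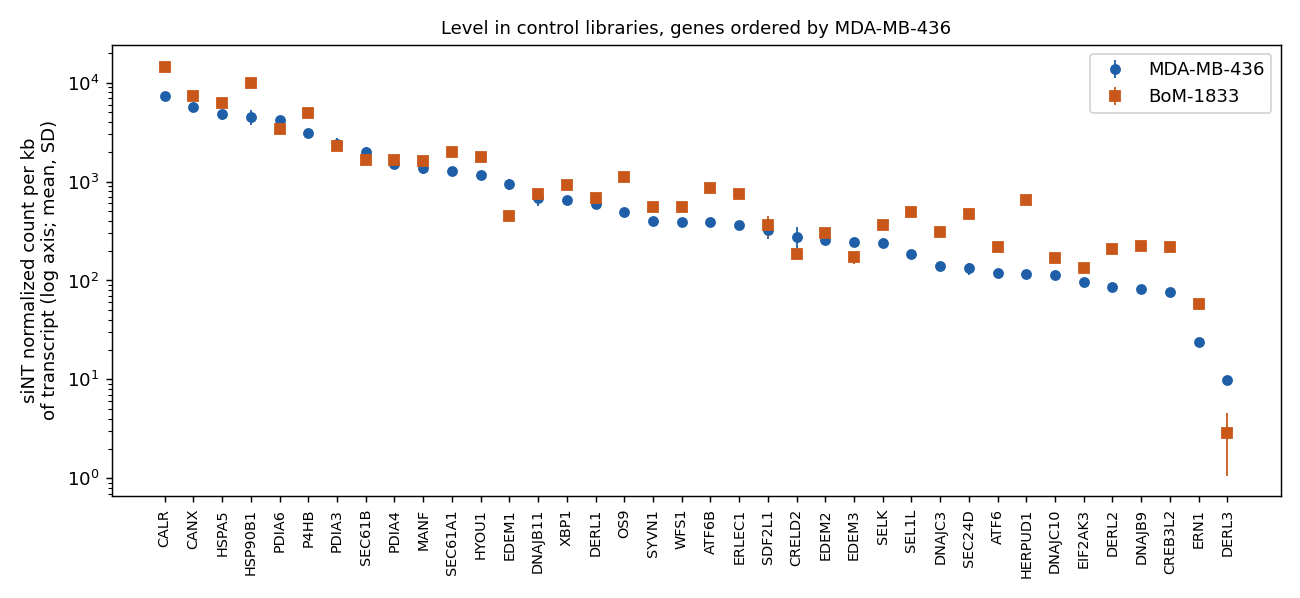
Normalized counts per kilobase of transcript in the siNT libraries (y axis, log scale; points are means and bars the SD of 3 libraries) for the 38 genes, ordered by their level in MDA-MB-436 (circles), with BoM-1833 as squares. CALR leads in both lines, and ERN1 and DERL3 are the lowest.

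Around the 38 genes, 141 further genes of 10 neighbouring processes were read from the same tables. In MDA-MB-436 41 of 140 tested were called (25 higher, 16 lower), or 29.3%, against 22.1% of all tested genes and 27.4% of abundant ones. In BoM-1833 15 of 141 were called (6 higher, 9 lower), or 10.6%, against 10.9% and 14.2%. Without 1 library the count ran from 20 to 58 for MDA-MB-436 and from 9 to 27 for BoM-1833. The share of all tested genes called in those fits is not given here. It was 20 without siNT replicate 2, siPHF19 replicate 1 or siPHF19 replicate 2 and 24 without siPHF19 replicate 3 in MDA-MB-436. The BoM-1833 count was 27 without siNT replicate 1 and 9 without siPHF19 replicate 3. The median log2 fold changes were 0.02 and 0.01. Shares of all tested genes called are given below beside the count of each process, MDA-MB-436 first, and no difference from them was tested.

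The outputs of PERK and ATF4 had 1 higher and 3 lower of 10 for MDA-MB-436 and 0 higher and 3 lower for BoM-1833 (all tested genes 10.5% higher and 11.5% lower, and 5.21% and 5.72%, medians -0.10 and -0.16). ASNS, the asparagine synthetase and an ATF4 target, fell in both lines, from 1428 ± 97.3 to 1149 ± 81.0 (SD, n = 3; -0.31, adjusted p-value 0.00412) and from 1274 ± 113 to 931 ± 61.6 (SD, n = 3; -0.45, adjusted p-value 1.67e-05) by the authors' deposited table. PPP1R15A (GADD34), which reverses the translation block set by PERK, fell in BoM-1833 (-0.54, adjusted p-value 2.64e-09) and had -0.24 (adjusted p-value 0.142) in MDA-MB-436 per the authors' deposited table. ATF3, a stress-induced factor, rose in MDA-MB-436 (0.56, adjusted p-value 2.30e-05) and had -0.15 (adjusted p-value 0.792) in BoM-1833 per the same authors' deposited table. The call of ASNS in MDA-MB-436 was lost without siPHF19 replicate 1 (adjusted p 0.0764) or 2 (0.0952). ATF4 itself was called lower in MDA-MB-436 (-0.36, adjusted p-value 0.00257) and not in BoM-1833 (-0.00, adjusted p-value 0.993), by the authors' deposited table. TRIB3 was called lower in both lines (-0.26, adjusted p-value 0.00907, and -0.38, adjusted p-value 0.00139) by the authors' deposited table.

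Of 9 COPII coat genes 3 rose in MDA-MB-436 and BoM-1833 had 2 that rose, with 0 lower in each (all tested genes 10.5% higher and 11.5% lower, and 5.21% and 5.72%, medians 0.12 and 0.09). SEC23A, an inner coat subunit, rose in both lines (0.45, adjusted p-value 8.74e-06, and 0.25, adjusted p-value 0.00538), as did SEC24A (0.28, adjusted p-value 0.0369, and 0.27, adjusted p-value 0.0337), by the authors' deposited table. SEC24A lost its call in 5 of 6 and 4 of 6 fits that left out 1 library (adjusted p up to 0.213 and 0.235), and SEC23A in BoM-1833 without siPHF19 replicate 1 (0.104) or 3 (0.0688). SEC31A, of the outer coat, rose in MDA-MB-436 (0.45, adjusted p-value 4.17e-04) per the authors' deposited table. Of 18 ERAD adaptors and ubiquitin genes 4 rose and 0 fell in MDA-MB-436, and BoM-1833 had 0 called in either direction (all tested genes higher 10.5% and 5.21%, medians 0.01 and 0.01). The membrane ubiquitin ligases RNF5 (0.37, adjusted p-value 1.02e-04) and RNF185 (0.47, adjusted p-value 1.33e-04) and the conjugating enzyme UBE2J1 (0.24, adjusted p-value 0.0133) were among the 4 per the authors' deposited table, and UBE2J1 lost its call without siNT replicate 2 or siPHF19 replicate 1 or 2 (adjusted p up to 0.165).

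Oxidative folding genes outside the core list split, with 3 higher and 5 lower of 15 for MDA-MB-436 and 1 and 1 for BoM-1833 (all tested genes 10.5% higher and 11.5% lower, and 5.21% and 5.72%, medians -0.05 and 0.00). In MDA-MB-436 ERP44, which retains clients in the early secretory pathway, rose (0.38, adjusted p-value 2.26e-05) and the membrane thioredoxin TMX1 fell (-0.43, adjusted p-value 1.10e-07) per the authors' deposited table. ERO1B (ERO1LB) was called lower in both lines (-0.53, adjusted p-value 6.08e-04, and -0.55, adjusted p-value 0.00412) by the authors' deposited table. QSOX1, a sulfhydryl oxidase, fell in MDA-MB-436 (-0.20, adjusted p-value 0.0115) and rose in BoM-1833 (0.35, adjusted p-value 1.17e-07) per the authors' deposited table; its call in MDA-MB-436 was lost without siNT replicate 2 or siPHF19 replicate 1 or 2 (adjusted p up to 0.218). Of 14 glycan genes 5 rose and 0 fell in MDA-MB-436, and 1 fell and 0 rose in BoM-1833 (all tested genes higher 10.5% and 5.21%, medians 0.09 and 0.08). Subunits of the oligosaccharyltransferase were among them, with STT3B at 0.26 (adjusted p-value 3.26e-04), DDOST at 0.22 (adjusted p-value 0.00154) and OSTC at 0.24 (adjusted p-value 0.0129) in MDA-MB-436 per the authors' deposited table. DDOST and OSTC each lost the call in 4 of 6 fits that left out 1 library (adjusted p up to 0.104 and 0.161).

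Of 16 signal peptidase and translocon genes 1 rose in MDA-MB-436, and BoM-1833 had 1 that rose and 1 that fell (all tested genes 10.5% higher and 11.5% lower, and 5.21% and 5.72%, medians 0.08 and 0.02). They were TRAM1 (0.29, adjusted p-value 0.00282) in MDA-MB-436 and SEC11A (0.24, adjusted p-value 0.0272) and SSR3 (-0.29, adjusted p-value 8.33e-05) in BoM-1833 per the authors' deposited table. TRAM1 lost its call without siPHF19 replicate 2 (adjusted p 0.0675), and SEC11A in 5 of 6 fits that left out 1 library (adjusted p up to 0.333). Sensor proteases, calcium and ER-phagy genes had 5 higher and 1 lower of 17 tested for MDA-MB-436 and 1 and 1 of 18 for BoM-1833 (all tested genes higher 10.5% and 5.21%, medians 0.16 and 0.00). TMED10, a cargo receptor of early secretory vesicles, rose in MDA-MB-436 (0.42, adjusted p-value 5.97e-08), as did the ER-phagy receptor CCPG1 (0.31, adjusted p-value 0.00108; 0.0549 without siPHF19 replicate 2), per the authors' deposited table. CREB3L1, the nearest relative of CREB3L2, rose in BoM-1833 from 1111 ± 65.4 to 1807 ± 31.7 (SD, n = 3; 0.70, adjusted p-value 1.68e-18) and had 0.19 (adjusted p-value 0.375) in MDA-MB-436 per the authors' deposited table.

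Further lumenal chaperones had 3 higher and 2 lower of 19 for MDA-MB-436 and 1 higher and 0 lower for BoM-1833 (all tested genes 10.5% higher and 11.5% lower, and 5.21% and 5.72%, medians -0.09 and 0.03). The collagen chaperone SERPINH1 rose in both lines (0.47, adjusted p-value 1.60e-10, and 0.26, adjusted p-value 0.00269), and in MDA-MB-436 the prolyl isomerase FKBP14 rose (0.47, adjusted p-value 7.26e-05) and SDF2 fell (-0.46, adjusted p-value 0.00184) per the authors' deposited table. SERPINH1 lost its call in BoM-1833 without siPHF19 replicate 3 (adjusted p 0.0541), and SDF2 without siNT replicate 2 (0.0603) or siPHF19 replicate 1 (0.0593). Cytosolic heat shock genes, which answer to another stress pathway, had 0 higher and 4 lower of 12 for MDA-MB-436 and 0 and 2 for BoM-1833 (all tested genes lower 11.5% and 5.72%, medians -0.16 and -0.03). HSP90AA1 fell in both lines (-0.55, adjusted p-value 5.35e-06, and -0.31, adjusted p-value 1.84e-07), as did HSPA4 (-0.53, adjusted p-value 7.61e-10, and -0.29, adjusted p-value 3.91e-06), and HSPH1 fell in MDA-MB-436 (-0.39, adjusted p-value 3.61e-06), by the authors' deposited table. Of 10 mitochondrial chaperones and proteases 1 fell in MDA-MB-436, HTRA2 (-0.37, adjusted p-value 0.00112), and 0 were called in BoM-1833 per the authors' deposited table (all tested genes lower 11.5% and 5.72%, medians -0.11 and -0.03).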

How the data were processed

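RNA from 12 libraries, prepared with a stranded mRNA kit per the labels' protocols, was read from 1 deposited table per cell line. Per the submitters' processing notes the authors used STAR, RSEM 1.3.1 and DESeq2 1.46.0 with hg38; which annotation was counted, and whether by strand, is not given in the sources used here. The deposited normalized values are a signal, read counts divided by a size factor, and 100% of the values were whole reads within 0.01 read once multiplied back. The authors' deposited tables also give log2 fold changes with standard errors, a Wald score (the test statistic), and p-values with adjusted p-values. No per-sample column was left without a sample.

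The authors' Wald test was taken as the main test, with a threshold of 0.05 on the adjusted p. Alternatives on the recovered reads used edgeR 4.0.16 (quasi-likelihood test, TMM or RLE factors) and DESeq2 1.42.0 in R 4.3.3: no independent filtering, a mean count of at least 10, a replicate block, and each library left out. A DESeq2 refit made the same 3143 and 1411 calls as the deposited tables. Lines were compared by a 2-sided z test on both fold changes with Benjamini-Hochberg adjustment over 12290 genes. On simulated counts DESeq2 found 76% of 100 genes changed 1.5-fold when modelled on MDA-MB-436 and 88% when modelled on BoM-1833. The z test found 54% of 100 genes whose response differed 1.5-fold between lines.

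The 38 genes and all lists were chosen with earlier results of these data known. Values in every library are given for genes called in at least 1 line and for HSPA5, XBP1, ATF6, ERN1 and EIF2AK3. Of each neighbouring process up to 3 called genes with the smallest adjusted p are named. ATF4, TRIB3 and ERO1B are named besides, and their calls were not followed singly under the alternatives. Positions and 3′ UTRs come from GENCODE 29 (GRCh38), promoters from RefSeq. Within groups, 12 pairs of libraries differed by more than sampling noise (chi-square per degree of freedom 6.18 to 25.5 for siNT pairs and 2.32 to 3.56 for siPHF19 pairs, so control libraries were the more variable in both lines).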

Additional observations from a re-analysis of the deposited data

Results flagged for a closer look

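The following genes had log2 fold changes that differed between the lines by the z test of the difference itself, adjusted over all 12290 genes tested in both lines. Among the 38 ER genes they were DNAJB9 (BoM-1833 minus MDA-MB-436 -0.53, adjusted p 0.0237) and DERL1 (-0.38, adjusted p 0.0120). Of the 140 genes of neighbouring processes tested in both lines 6 differed, beside 4.89% of all genes. Of the 28 named for the smallest adjusted p-values within a line, 4 did. They were QSOX1 with a difference of 0.55 (SE 0.09, adjusted p 6.60e-08) and opposite signs in the lines, CREB3L1 with 0.52 (adjusted p 0.0278), HSPH1 with 0.30 (adjusted p 0.0262) and TMED10 with -0.34 (adjusted p 0.00941).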

How the results depend on the processing

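None of the 19 calls among the 38 genes, nor of the 35 calls of neighbouring genes named for the smallest adjusted p, changed sign under the alternatives run. Other genes were not followed. In MDA-MB-436 the number of the 38 genes called was 10 by edgeR with TMM or RLE factors and by both DESeq2 filter settings, 8 with an absolute log2 fold change of at least 0.3, and 6 to 14 without 1 library. In BoM-1833 it was 9 by edgeR (2 higher, 7 lower), 8 by both DESeq2 filter settings, 2 with an absolute log2 fold change of at least 0.3, and 3 to 16 without 1 library. The number that differed between lines was 3 by the interaction terms of DESeq2 and edgeR and 0 to 4 without 1 library. Replicate numbers were shared between groups, but same-numbered libraries did not deviate together. Their correlations lay between -0.269 and 0.0387 for MDA-MB-436 and between -0.307 and -0.117 for BoM-1833. Differently numbered libraries had correlations between -0.0434 and 0.275 and between -0.191 and 0.335. Deviations from a mean of 3 libraries cannot show whether the numbers pair the samples, and the main test took them as unpaired. With a replicate block MDA-MB-436 had 6 genes called (2 higher, 4 lower) and BoM-1833 had 2 (0 higher, 2 lower). Medians without 1 library ran from -0.183 to 0.0623 for the lumenal chaperones, from 0.0232 to 0.0832 for translocation and export and from -0.0966 to -0.0182 for ERAD in MDA-MB-436. Those of BoM-1833 ran from -0.0405 to 0.0816 for the lumenal chaperones, from -0.150 to -0.0444 for ERAD and from -0.0685 to -0.0270 for the disulfide isomerases. The genes of neighbouring processes were tried under the same alternatives, chosen after seeing the data; with a replicate block MDA-MB-436 had 18 of them called and BoM-1833 had 8. Calls among all genes are not given for the fits without 1 library or with a replicate block. Shifts in those fits thus cannot be read as particular to the genes followed, and the cause of these shifts was not tested. With 3 libraries per group, some 1.5-fold changes were missed in simulated counts, and counts per gene do not resolve XBP1 splicing, protein levels or ATF6 cleavage.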
